A study of Mus musculus with 30 samples.

Results

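The genes Fosb, Gfi1, Runx1 and Spi1 encode the 4 transcription factors whose initials form the name FGRS. They were taken by symbol from the gene-level expression table and are 4 of its 23060 symbols. All 4 passed the filter on low values. A symbol's value does not separate the transcript of the native gene from that of a factor supplied to the cell.

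The study converted adult mouse endothelial cells to blood-forming cells and asked whether such cells give rise to a working blood and immune system. RNA was sequenced in 30 libraries. Of these, 13 came from freshly isolated cells labelled wild type (controls) and 13 from freshly isolated cells labelled derived and titled rEC. The 2 origins were compared in bone marrow LKS-SLAM cells (lineage-negative, Kit+ and Sca1+ cells gated for stem cells; 3 control and 3 rEC libraries), Gr1+Cd11b+ myeloid cells of the blood (2 and 2), B220+ B cells of the blood (3 and 3), and 2 kinds of T cell, Cd3+Cd4+ (2 and 2) and Cd3+Cd8+ (3 and 3), called CD4 and CD8 cells below.
A further 3 libraries, labelled derived, came from adherent FGRS KLS cells at day 28 of culture on human umbilical vein endothelial cells (HUVEC). Some rEC libraries share a source. Replicate 2 of the LKS-SLAM and of the B cells is titled 47G1 primary. Replicate 3 of both, replicate 2 of the CD4 cells and replicates 2 and 3 of the CD8 cells are titled secondary. The labels give no age, strain, promoter or allele, and do not say whether the factors were still supplied at day 28. The remaining library, titled B220+ and clone 47G1 but labelled wild type, entered no comparison.

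FOSB is a subunit of AP-1, a dimer that binds DNA with a Jun protein. Its gene is an immediate early gene, transcribed within minutes of a stimulus without new protein synthesis. GFI1 is a zinc finger repressor that recruits the histone demethylase LSD1 (Kdm1a) and CoREST proteins, and limits the proliferation of stem cells. RUNX1 binds DNA with its partner CBFB and is needed for blood cells to emerge from endothelium in the embryo. PU.1, the product of Spi1, is an ETS factor that activates genes of macrophages, granulocytes and early B cells.

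In the GENCODE annotation on mm10, Fosb lies at chr7:19302696-19310051 and Gfi1 at chr5:107716657-107726036. Runx1 lies at chr16:92601466-92826149, and all 3 of these genes are on the minus strand. Spi1 lies at chr2:91082390-91115756 on the plus strand. Runx1 has 2 promoters far apart, whose transcripts share the table's single value, and Fosb has the signal-responsive promoter of the set, so these promoters are shown. They are RefSeq sequences of build GRCm38.p6 on the minus strand, from 250 bases before to 50 bases after the start of transcription, at chr7:19309996-19310295 for Fosb, chr16:92826025-92826324 for the distal and chr16:92697280-92697579 for the proximal start of Runx1. Capitals mark motif matches: the CRE-like TGACGCAA in Fosb and ACCACA, the RUNX motif TGTGGT read on the other strand, in the distal Runx1 promoter.
Fosb promoter: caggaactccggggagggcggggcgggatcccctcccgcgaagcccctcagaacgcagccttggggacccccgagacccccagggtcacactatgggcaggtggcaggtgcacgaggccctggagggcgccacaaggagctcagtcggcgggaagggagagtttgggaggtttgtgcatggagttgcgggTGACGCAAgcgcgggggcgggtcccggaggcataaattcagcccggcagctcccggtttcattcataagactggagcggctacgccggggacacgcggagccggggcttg
Runx1 distal promoter: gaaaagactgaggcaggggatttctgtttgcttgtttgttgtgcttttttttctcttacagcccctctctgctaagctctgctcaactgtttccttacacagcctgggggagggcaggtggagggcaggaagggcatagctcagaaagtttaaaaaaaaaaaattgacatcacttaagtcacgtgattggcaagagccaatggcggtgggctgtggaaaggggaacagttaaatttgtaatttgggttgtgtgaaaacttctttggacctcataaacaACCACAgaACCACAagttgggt
Runx1 proximal promoter: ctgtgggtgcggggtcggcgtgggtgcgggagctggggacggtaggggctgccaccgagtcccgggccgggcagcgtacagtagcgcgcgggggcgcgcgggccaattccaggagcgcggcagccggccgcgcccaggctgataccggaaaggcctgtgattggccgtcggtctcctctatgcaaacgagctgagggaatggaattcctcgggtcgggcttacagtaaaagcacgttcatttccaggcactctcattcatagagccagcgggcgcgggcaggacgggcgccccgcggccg
The CRE-like match lies 60 bases before the Fosb start. Of 32851 promoters of this length, 0.490% held this motif on either strand. The 2 RUNX matches lie 28 and 36 bases after the distal Runx1 start, and 1.81% of promoters held 2 or more. The other motifs searched on both strands were GAGGAAGT for PU.1 (3.20% of promoters), AAATCAC for GFI1 (3.20%), TGANTCA for AP-1 (7.81%), TATAAA (13.6%) and the CArG box (1.63%). Neither these nor the listed motifs had a match in the proximal Runx1 promoter. RefSeq promoters were matched for 3 of the 4 genes, all but Spi1, and Gfi1 had no match in either of its promoters.

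The FPKM (fragments scaled by transcript length and by the mapped fragments of the library) of the 30 libraries summed to 510115 to 727885, and 10165 to 12550 genes stood at 1 FPKM or more. FPKM carry no counts, so the absolute depth is unknown. The relative depth read from the lowest values ranged from 0.588 to 1.14 of B cell control replicate 2. A pair of libraries stood apart from their labels. LKS-SLAM rEC replicate 2 had summed erythroid markers of 2381 FPKM, against 19.6 to 396 in the other LKS-SLAM libraries, and summed stem cell markers of 128 against 550 to 850. B cell rEC replicate 1 had summed T cell markers of 1448 FPKM, against 13.2 to 22.6 in the other B cell libraries, and B cell markers of 1725 against 5823 to 6900. Results that rest on either are given with and without it. The other sorted libraries were highest in the markers of their labels, except the LKS-SLAM controls, where neutrophil markers summed to 1793 to 2864 FPKM against 550 to 596 for stem cell markers. Eosinophil, basophil and mast cell markers summed to 2369, 3982 and 43.4 FPKM in those 3 controls. In the FGRS culture the 7 endothelial markers summed to 23.2 to 47.45 FPKM, with Cdh5 among them at 0.610, 0.261 and 0.215 FPKM. The culture's stem cell markers summed to 179, 143 and 129.5 FPKM and its neutrophil markers to 965 to 5665. In such bulk samples, fewer cells of a type and less RNA per cell cannot be told apart.

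**Figure D1:**
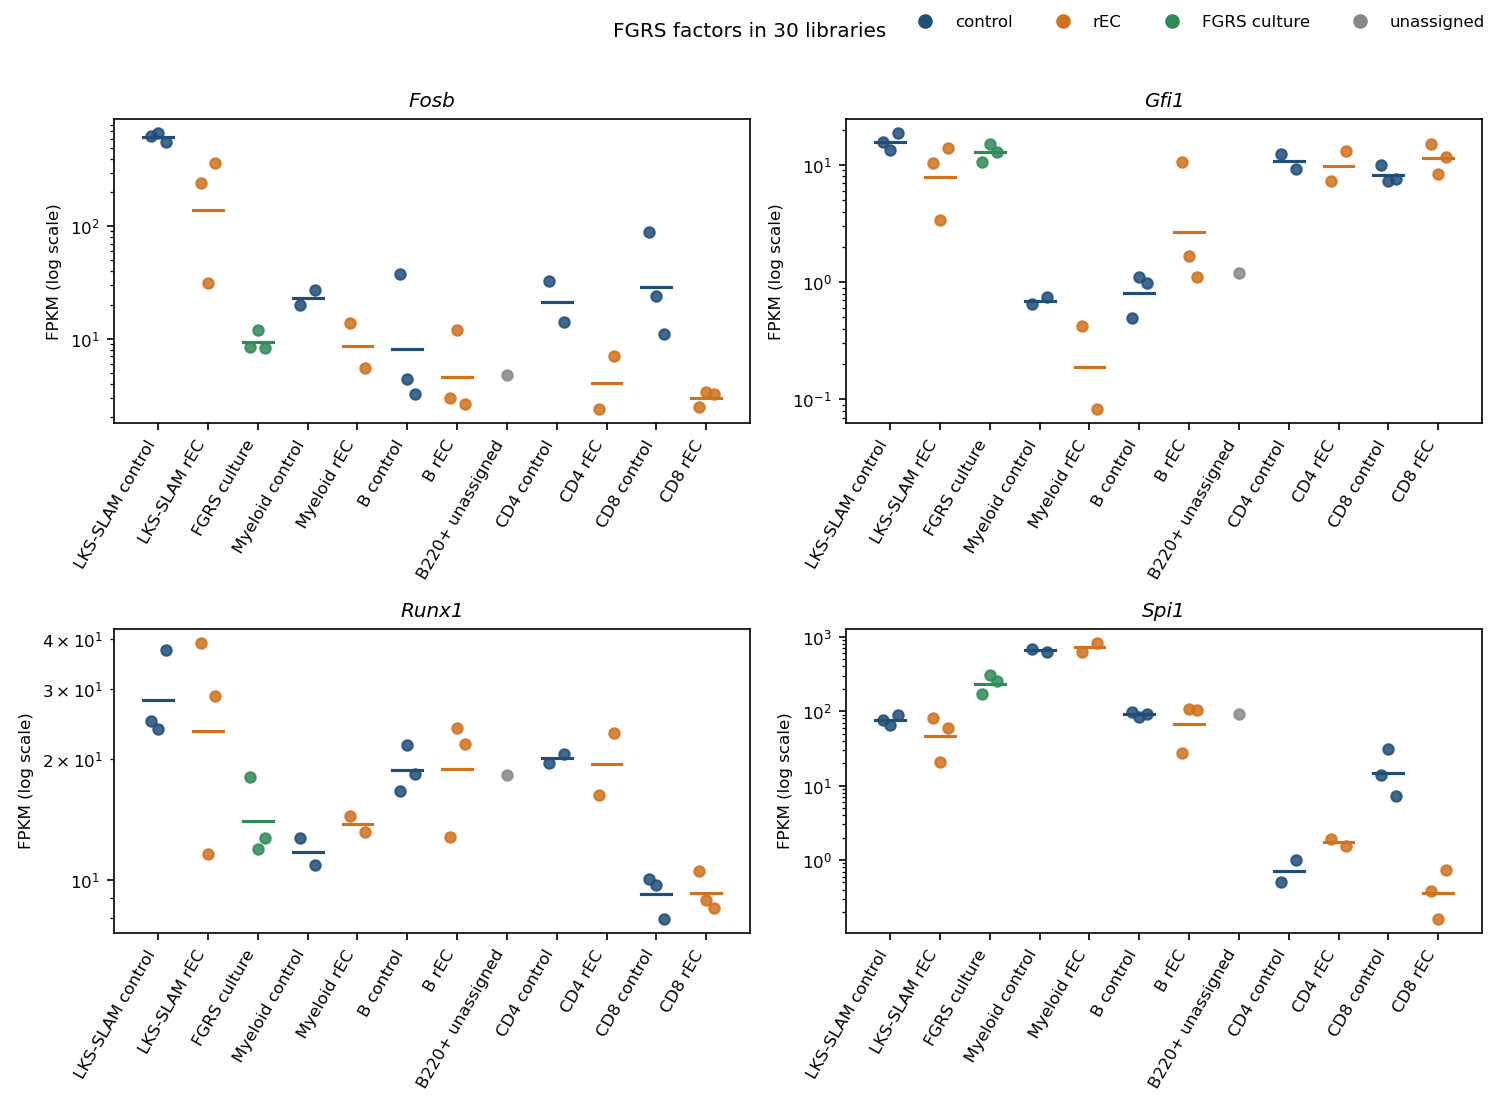
FPKM on a log axis of Fosb, Gfi1, Runx1 and Spi1 in each of the 30 libraries, by cell type and origin; points are libraries and short lines geometric group means. Fosb is at 566 to 673 FPKM in control LKS-SLAM cells, Spi1 at 627 to 823 in the myeloid libraries, and Runx1 covers the narrowest range.

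Each factor had its own order of levels across the control cell types. Fosb, Gfi1 and Runx1 had their highest mean in LKS-SLAM cells and Spi1 in myeloid cells. The ratio of the highest to the lowest mean FPKM was 863 for Spi1, 41.6 for Fosb, 22.8 for Gfi1 and 3.11 for Runx1. All 4 differed among the 5 control types by limma's F test on log2(FPKM + 1), with adjusted p = 4.01e-10 for Spi1, 1.34e-05 for Fosb, 2.21e-06 for Gfi1 and 0.000911 for Runx1. At an adjusted p of 0.05, 84.6% of the genes tested passed that test, so a pass is the common outcome. Groups that do not overlap are common too. Of all genes, 81.1%, 65.6%, 71% and 69.2% did not overlap between LKS-SLAM and myeloid, B, CD4 and CD8 controls. The share was 76.2%, 82% and 82.7% between myeloid and B, CD4 and CD8 cells, 54.4% and 55.4% between B and CD4 and CD8 cells, and 51.7% between CD4 and CD8 cells. All p-values measure the spread between libraries, which may be technical, as no label ties a library to its own animal. Differences below are on the log2(FPKM + 1) scale, which understates the change of low genes. An interval is the 95% interval of a difference, and an adjusted p is limma's with Benjamini-Hochberg adjustment over all 14083 genes tested.

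Fosb stood at 632, 673 and 566 FPKM in the 3 control LKS-SLAM libraries, above 98.9% or more of the genes at 1 FPKM or more in each. It was at 89.7, 23.9 and 10.98 FPKM in control CD8 cells and at 19.8 and 27.0 in control myeloid cells. Control CD4 cells held 32.4 and 14.2 FPKM, and control B cells 37.4, 4.40 and 3.23. Every control LKS-SLAM library was thus far above every mature library, whereas the 4 mature types overlapped. The mean was 15.0-fold higher in LKS-SLAM than in CD8 cells, the next type in the order, a log2 difference of 4.38 ± 0.83 (SE; adjusted p = 0.000156; 50.2% of genes called). None of the neighbours below passed the test. The difference was -0.32 for myeloid minus CD8 cells (interval -2.24 to 1.61; 53.4% called), 0.10 for myeloid minus CD4 cells (-2.01 to 2.21; 52.9% called) and -1.24 for B minus CD4 cells (-3.16 to 0.69; 21.5% called). The last was called with quality weights (-2.05, adjusted p = 0.0273). B cell control replicate 1 alone held the high B cell value. Without it, Fosb was called lower in B cells than in myeloid cells (difference 2.33 for myeloid minus B, adjusted p = 0.0348; 53% of genes called with it) and than in CD8 cells (-2.65, adjusted p = 0.0235).

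In rEC cells the Fosb mean was lower in 5 of 5 cell types. The 3 rEC LKS-SLAM libraries held 242, 31.1 and 366 FPKM, all below the 3 controls, and the difference was -2.13 ± 0.83 (SE; adjusted p = 0.339). It was -1.06 (adjusted p = 0.481) without replicate 2, the library with erythroid markers. Of all genes, 1.32% were called in LKS-SLAM cells and 6.44% had groups that did not overlap. CD8 rEC libraries held 2.47, 3.35 and 3.20 FPKM, again all below their controls. That difference was -2.91 ± 0.83 with adjusted p = 0.115, where 1.13% of genes were called and 30.5% did not overlap. It was called in 1 leave-one-out fit, without CD8 control replicate 3 (-3.57, adjusted p = 0.0486).
Myeloid rEC libraries held 13.7 and 5.47 FPKM and CD4 rEC libraries 2.36 and 7.04, below all their controls in both types. The differences were -1.31 (interval -3.42 to 0.81) and -2.11 (-4.23 to 0.00), each with adjusted p = 1. The shares of genes called were 0.227% and 0.0213%, and the shares that did not overlap were 44.2% and 37.3%. B cells were the exception to the separation. Their rEC libraries held 2.98, 12.0 and 2.61 FPKM, within the range of the controls, with a difference of -0.74 (-2.47 to 0.98). In B cells limma called 0% of genes, with 398 at an unadjusted p under 0.05, and 6.94% did not overlap. That B cell difference changed sign, to 0.26, without control replicate 1.

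Over the 5 cell types together, Fosb was lower in rEC cells by a mean difference of -1.84 ± 0.41 (SE; adjusted p = 0.0296), a comparison in which 0.895% of genes were called. The call was lost without any 1 of 6 libraries, LKS-SLAM control replicate 2, myeloid control replicate 1 or 2, myeloid rEC replicate 2, CD4 control replicate 1 or CD4 rEC replicate 1, with a difference of -1.98 to -1.63 over all such fits. The fit counts rEC libraries that share a source across cell types as independent, and what this does to the p-value was not tested. The differences were not shown to vary between cell types (F test, adjusted p = 1; 0.277% of genes called).

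**Figure D2:**
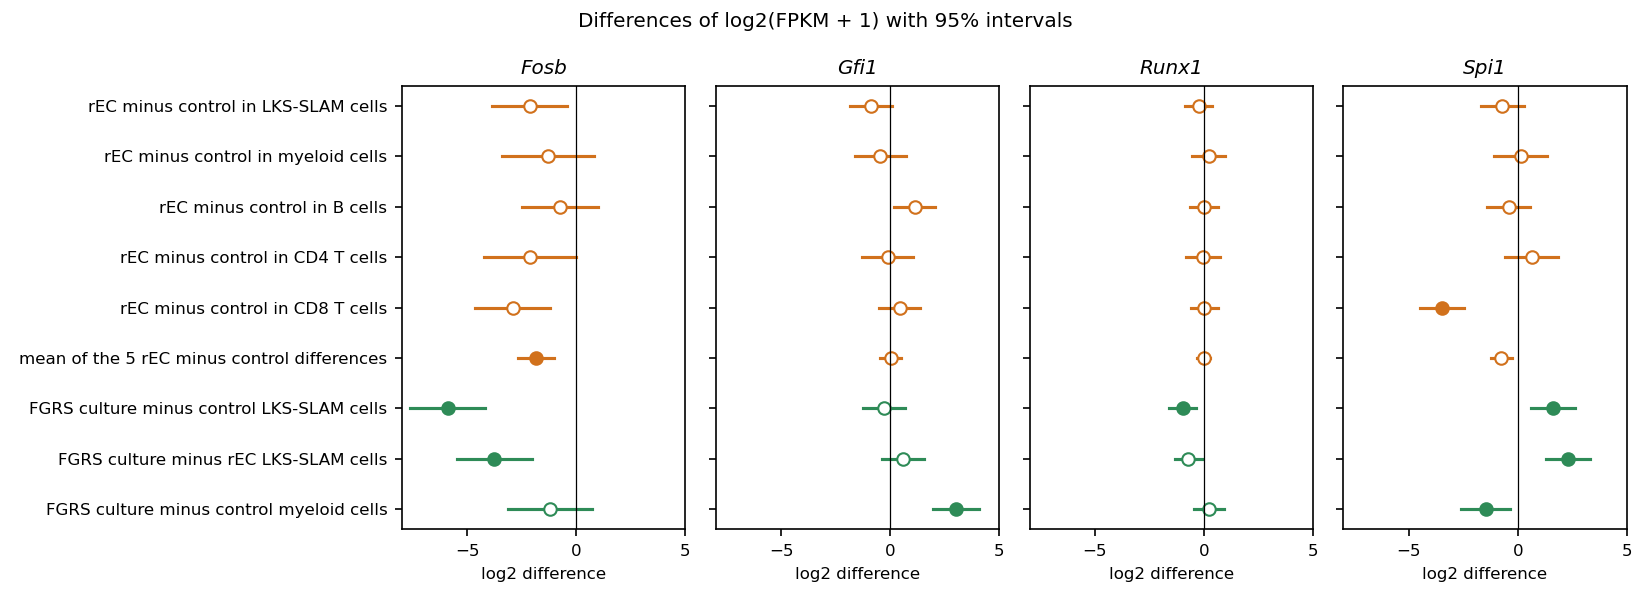
Fitted rEC minus control difference on the log2(FPKM + 1) scale of each factor in the 5 cell types and over their mean, with 95% intervals. Fosb is below 0 in 5 of 5 cell types, and Spi1 is near -3.48 in CD8 cells where the intervals of the other 4 cell types cross 0.

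The FGRS culture held 8.46, 12.0 and 8.34 FPKM of Fosb, below every LKS-SLAM library of either origin. Of all genes, 58.6% did not overlap between culture and control LKS-SLAM cells, 33.3% between culture and rEC LKS-SLAM cells and 77.6% between culture and control myeloid cells. Fosb fell by 5.90 against control LKS-SLAM cells (adjusted p = 1.04e-05; 48.8% of genes called) and by 3.76 against rEC LKS-SLAM cells (adjusted p = 0.00103; 45% of genes called). Without rEC replicate 2 the latter was -4.83. Fitted on those 2 groups alone, the difference from rEC cells missed the threshold (adjusted p = 0.0676). The culture was also below both control myeloid libraries, by -1.20 (interval -3.13 to 0.72; 58.1% of genes called), which was called when the 2 groups were fitted alone (adjusted p = 0.00792).

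The summed level of 14 immediate early genes, Fos and Jun among them, was compared beside Fosb. It was 11390 to 13540 FPKM in control LKS-SLAM cells, against 9851, 523 and 8758 in the 3 rEC libraries, lowest where Fosb was lowest. In CD8 cells it was 746 to 1775 FPKM in controls and 312.5 to 429 in rEC, with no overlap. In B cells it overlapped, at 641.5 to 1376 FPKM in controls and 469.6 to 1277 in rEC. The FGRS culture held 755 to 880 FPKM. The part of a response shared by this class in the Fosb result was not tested.
Of the 10 other AP-1 genes, Fos and Jun fell in the mean over 5 cell types, by 2.12 (adjusted p = 0.0447) and 1.90 (adjusted p = 0.0194), and none rose. The list's median was -0.21, against -0.02 for all genes. The call of Fos was lost in 18 and that of Jun in 2 of the 26 fits that each left out 1 library. The same genes were the 2 of 14 immediate early genes that passed. In this mean over 5 cell types, 0.483% of all genes were called lower and 0.412% higher. In CD8 cells Fos, a paralogue of Fosb, fell by 5.02 and Jun, a dimer partner, by 4.56; the call of Fos was lost without any 1 of 4 of the 6 libraries. Fos stood at 271, 215 and 90.7 FPKM in CD8 controls and at 2.16, 2.80 and 12.1 in CD8 rEC libraries.
Of 4 inducible heat shock genes, Hspa1a and Hspa1b fell in CD8 cells, by 4.70 and 5.56, where 0.987% of all genes were called lower. These are near-identical copies whose fragments could be split between them. The summed level of the 4 was 462, 112 and 100.1 FPKM in CD8 controls, highest in the replicate with the highest Fosb, and 68.3 to 89.1 in CD8 rEC cells. The part of heat shock genes in the Fosb result was not tested.

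In the FGRS culture, 5 of the 10 other AP-1 genes fell against control LKS-SLAM cells. They were Fos (-4.58), Jun (-4.07), Jund (-3.59), Junb (-2.98) and Batf2 (-2.94), whereas Fosl1, encoding FRA1, rose by 1.30. Of all genes, 31.7% were called lower in this comparison and 17.1% higher. Of the 14 immediate early genes 13 fell, with a median of -4.08 against -0.19 for all genes. Against rEC LKS-SLAM cells 3 AP-1 genes fell, Jun (a call lost in 3 of 6 leave-one-out fits), Jund and Batf2, and 2 rose, Atf3 (3.38) and Fosl1 (1.73). In that comparison 27.8% of all genes were called lower and 17.2% higher, so these counts of 10 are near the shares of all genes.
The share of Fosb relative to Fos differed by lineage. The ratio of Fosb to Fos, both in FPKM, was 0.251 to 0.307 in control LKS-SLAM cells and 0.144 to 0.202 in control B cells. It was 0.0254 to 0.0295 in control myeloid cells and 0.0159 to 0.0235 in rEC myeloid cells, where Fos itself was high (777 and 916 FPKM in the controls). Both myeloid groups lay below the lowest ratio of any other group, 0.0873 in the FGRS culture. This ratio was not tested.

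**Figure D3:**
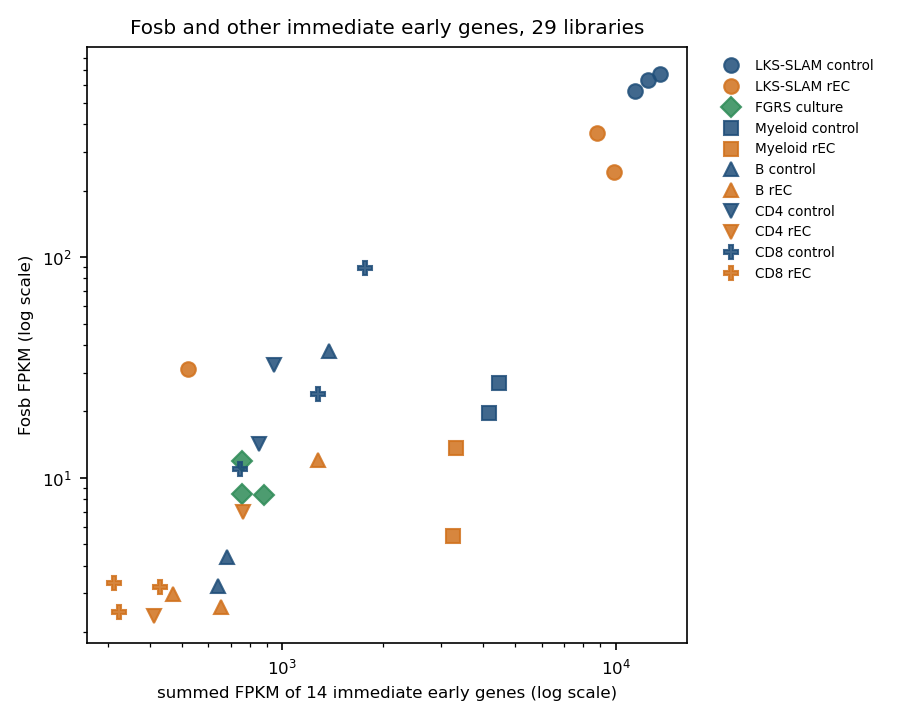
Fosb FPKM against the summed FPKM of 14 immediate early genes in the 29 grouped libraries, both on log axes, with symbols by cell type and colours by origin. LKS-SLAM control libraries are at the top right and LKS-SLAM rEC replicate 2, at 31.1 FPKM of Fosb, lies far from the other LKS-SLAM libraries.

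The 5 genes whose log2(FPKM + 1) was most like that of Fosb over the 29 grouped libraries were Jun (Pearson's r = 0.93), Ier2 (0.91) and Egr1 (0.90), all immediate early genes, Kcnip3 (0.89) and Tmem200b (0.88). Libraries of a group are not independent points, so these values are a description. Over the 11 group means, 1 of these 5 genes was again among the nearest 5.

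Gfi1 fell into 2 levels across the control cells. It stood at 15.8, 13.3 and 18.7 FPKM in LKS-SLAM cells, 12.3 and 9.30 in CD4 cells, and 9.91, 7.24 and 7.57 in CD8 cells. In B cells it was at 0.497, 1.11 and 0.980 FPKM and in myeloid cells at 0.646 and 0.750. No library of the upper 3 types overlapped the lower 2. CD8 cells, the lowest of the upper types, exceeded B cells, with a difference for B minus CD8 of -2.31 ± 0.46 (SE; adjusted p = 0.000581; 24.3% of genes called). Within a level no pair of neighbours passed the test. The difference was 0.52 for LKS-SLAM minus CD4 (interval -0.55 to 1.58; 50.5% of genes called), 0.35 for CD4 minus CD8 (-0.71 to 1.42; 3.48% called) and -0.12 for myeloid minus B (-1.18 to 0.95), the last of which turned to 0.07 with libraries scaled to a common median. Between the ends of the upper level, LKS-SLAM minus CD8 was 0.87 (-0.08 to 1.82; limma adjusted p = 0.12). It was called with those 2 groups fitted alone (adjusted p = 0.00491) and with quality weights (0.73, adjusted p = 0.00543). Without both libraries that stood apart it was called too (adjusted p = 0.00231).

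No Gfi1 difference between origins passed the test in any of the 5 cell types. Few genes did, with 1.32% called in LKS-SLAM, 0.227% in myeloid, 0% in B, 0.0213% in CD4 and 1.13% in CD8 cells. LKS-SLAM rEC libraries held 10.5, 3.42 and 13.8 FPKM, overlapping the controls, and the difference was -0.89 (interval -1.84 to 0.07). It was -0.37 without replicate 2. CD4 rEC libraries held 7.24 and 13.1 FPKM, across the range of their controls. CD8 rEC libraries held 15.1, 8.40 and 11.6 FPKM, 2 of the 3 above every control, with a difference of 0.44 (-0.51 to 1.39). Myeloid rEC libraries held 0.426 and 0.0825 FPKM, below both controls (0.646 and 0.750), with a difference of -0.45 (-1.62 to 0.72).
The B cell difference came from 1 library. Gfi1 stood at 10.6 FPKM in rEC replicate 1, the library with T cell markers, and at 1.66 and 1.11 in the other rEC libraries. The difference was 1.12 ± 0.46 with that library and 0.36 without it. That library's Cd3e, a T cell receptor subunit, was at 198 FPKM against 0.393 or less in the other B cell libraries. The part of T cells in this value was not tested. The mean over 5 cell types was 0.02 (interval -0.44 to 0.49), and it took either sign in the leave-one-out fits (-0.13 to 0.13).

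In the FGRS culture Gfi1 stood at 10.6, 15.1 and 12.9 FPKM, within the range of the LKS-SLAM cells. The difference was -0.29 from control (interval -1.24 to 0.67) and 0.60 from rEC LKS-SLAM cells (-0.35 to 1.55), and 0.08 without rEC replicate 2. Against control myeloid cells Gfi1 was 3.02 ± 0.51 higher (SE; adjusted p = 2.84e-05). Its paralogue Gfi1b, which acts in the erythroid and megakaryocytic lineages, stood at 3.08, 1.22 and 1.83 FPKM in the culture and at 21.0, 21.7 and 8.99 in control LKS-SLAM cells, a fall of 2.54 (adjusted p = 3.84e-05). The rEC LKS-SLAM libraries held 15.8, 80.5 and 15.3 FPKM of Gfi1b, highest in the replicate with erythroid markers.
Of the 9 genes of the list of Gfi1b and corepressors, 6 fell in the culture against control LKS-SLAM cells and none rose. There 31.7% of all genes were called lower. Kdm1a, the demethylase that GFI1 recruits, fell by 0.80, and the CoREST genes Rcor3, Rcor2 and Rcor1 fell by 1.21, 0.86 and 0.69. The list's median was -0.69, against -0.19 for all genes, and 5 fell with quantile and 4 with median scaling. The calls of Rcor1 and Rcor2 were each lost in 4 of 6 leave-one-out fits, and both with quantile scaling (adjusted p = 0.0643 and 0.0993). Rcor1 was not called with median scaling either (adjusted p = 0.0566). Another of the 6 that fell, Ehmt2, lost its call in 6 of 6 leave-one-out fits and with median scaling (-0.21, adjusted p = 0.101). Against control myeloid cells 6 of the 9 were higher and none lower, where 37.8% of all genes were called higher and the median of all genes was 0.253.
Of 11 known targets that GFI1 represses, 7 fell in the culture against control LKS-SLAM cells and 1 rose. In this comparison 31.7% of all genes were called lower and 17.1% higher. The stem cell regulators Meis1 (-2.998) and Hoxa9 (-1.37) fell, Id1 fell by 2.02, and Irf8, a monocyte factor, rose by 1.35. The call of Irf8 was lost with quantile scaling (1.30, adjusted p = 0.0668) and in 4 of 6 leave-one-out fits, and that of Id1 in 2 of 6. Between origins 1.25% of all genes were called lower in LKS-SLAM and 0.987% in CD8 cells. Of the 11 targets, 2 fell in LKS-SLAM cells, Id1 and Egr2, and 1 in CD8 cells, Irf8 (-2.36). Leaving out 1 library at a time, these calls were lost in 3 (Id1), 2 (Egr2) and 4 (Irf8) of 6 fits.
The nearest genes to Gfi1 over the 29 libraries were Il12rb1 (r = 0.95), a receptor chain for IL-12, Galnt2 (0.94), Igfbp4 (0.93), Nr1d1 (0.93) and Pcgf2 (0.93), and 2 of these 5 recurred over group means.

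Runx1 was the least variable of the 4. It stood at 24.9, 23.8 and 37.5 FPKM in control LKS-SLAM cells, 19.6 and 20.6 in CD4 cells, and 16.6, 21.7 and 18.3 in B cells. Myeloid cells held 12.7 and 10.9 FPKM and CD8 cells 10.04, 9.70 and 7.97. No pair of neighbouring types in this order passed the test. The difference was 0.47 for LKS-SLAM minus CD4 (interval -0.23 to 1.16), -0.09 for B minus CD4 (-0.79 to 0.60), -0.64 for myeloid minus B (-1.33 to 0.06) and 0.32 for myeloid minus CD8 cells (-0.38 to 1.02). Myeloid minus B cells was called with those 2 groups fitted alone (adjusted p = 0.0191), with quality weights (-0.73, adjusted p = 1.38e-05) and without both libraries that stood apart (adjusted p = 0.00937). Myeloid minus CD8 cells was called with quality weights (0.30, adjusted p = 0.0334).
The ends of the order did differ. LKS-SLAM cells exceeded CD8 cells by 1.52 ± 0.30 (SE; adjusted p = 0.000244) and myeloid cells by 1.20 (adjusted p = 0.00357; 66.5% of genes called), where the median of all genes was also above 0, at 0.605. With libraries scaled to a common median the latter was 0.74 and did not pass (adjusted p = 0.0579). B cells exceeded CD8 cells by 0.96 (adjusted p = 0.0222), a call lost without B cell control replicate 2 or 3 or CD8 control replicate 3.

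Between origins no Runx1 difference passed the test, and the cell types kept the same order of means in rEC cells as in controls. Few genes passed in these comparisons, from 0% in B to 1.32% in LKS-SLAM cells. LKS-SLAM rEC libraries held 39.1, 11.6 and 28.7 FPKM, with the lowest in replicate 2 and the others inside or above the range of the controls. The difference was -0.24 (interval -0.87 to 0.38) and turned to 0.24 without that library. With libraries weighted by their estimated quality it was 0.63 and called (adjusted p = 0.000215).
B cell rEC libraries held 12.8, 24.0 and 21.9 FPKM and CD8 rEC libraries 10.5, 8.89 and 8.51, with a difference of 0.01 in both (intervals -0.62 to 0.63 and -0.61 to 0.63). Without B cell rEC replicate 1, the library with T cell markers, the B cell difference was 0.27. CD4 rEC libraries held 16.3 and 23.3 FPKM, a difference of -0.04 (-0.81 to 0.72). Myeloid rEC libraries held 14.5 and 13.2 FPKM, both just above their controls, a difference of 0.22 (-0.55 to 0.98). The mean over 5 cell types was -0.01, with an interval of -0.32 to 0.30, the narrowest of the 4 factors.

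In the FGRS culture Runx1 stood at 18.1, 11.9 and 12.7 FPKM, below all 3 control LKS-SLAM libraries. It fell by 0.96 ± 0.30 (SE; adjusted p = 0.012) against them. The call was lost without LKS-SLAM control replicate 3 (-0.76, adjusted p = 0.0684) or FGRS replicate 2 (-0.85, adjusted p = 0.0525). Against rEC LKS-SLAM cells the difference was -0.72 (adjusted p = 0.0566), and it passed without rEC replicate 2 (-1.20, adjusted p = 0.000179) or FGRS replicate 1 (-0.89, adjusted p = 0.0355). The culture overlapped the control myeloid cells, with a difference of 0.24 (interval -0.46 to 0.93) that turned to -0.09 and -0.14 with quantile and median scaling.
Cbfb, the shared partner that stabilises RUNX proteins on DNA, had group means of 37.8 to 60.6 FPKM and did not differ in the culture from control LKS-SLAM cells beyond its spread (0.28, adjusted p = 0.366). Runx3 had its highest control level where Runx1 had its lowest, at 57.7, 44.6 and 47.4 FPKM in CD8 cells. Runx3 was lower in LKS-SLAM than in CD8 cells by -1.19 (adjusted p = 0.00747) and in B than in CD8 cells by -1.19 (adjusted p = 0.0151). CD4 cells held 30.1 and 29.6 FPKM of Runx3, a difference of -0.71 from CD8 cells (adjusted p = 0.465). Runx2, known for its role in bone, had a mean of 38.0 FPKM in control LKS-SLAM cells, 20.0 in the culture and 0.339 in control B cells.
Of the 6 partners and relatives, 2 fell in the culture against control LKS-SLAM cells, the corepressor genes Cbfa2t3 (-1.58) and Runx1t1 (-0.71), and 1 with quantile scaling. In this comparison 31.7% of all genes were called lower and 17.1% higher, so 2 of 6 is near the share of all genes. Of the 10 known RUNX1 targets 8 were tested. In the culture, Csf1r, Itgal and Zbtb7b rose by 3.97, 1.70 and 1.14 against control LKS-SLAM cells, and Gfi1b and Nfe2 fell by 2.54 and 2.02. Against rEC LKS-SLAM cells, where 17.2% of all genes were called higher and 27.8% lower, 6 rose and 2 fell. The rises were led by the granule genes Mpo (6.29) and Elane (5.55). The same granule genes fell in rEC against control LKS-SLAM cells, Mpo by 5.30 and Elane by 4.70, in a comparison that shares the rEC libraries. The summed neutrophil markers, which include both genes, were 1793 to 2864 FPKM in control and 6.73 to 417 in rEC LKS-SLAM cells. Their part in the result was not tested.
The nearest genes to Runx1 over the 29 libraries were Mprip (r = 0.89), Kansl1l (0.86), Arid1b (0.86), Vangl2 (0.84) and Phlpp1 (0.83).

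Spi1 had the widest range. It stood at 675 and 631 FPKM in control myeloid cells, 98.3, 82.5 and 91.6 in B cells, and 76.4, 65.0 and 87.6 in LKS-SLAM cells. CD8 controls held 13.7, 30.8 and 7.24 FPKM and CD4 controls 0.502 and 1.01. B and LKS-SLAM cells overlapped, and every other step in the order was free of overlap. The step from myeloid to B cells was 2.84 ± 0.54 (SE; adjusted p = 0.000122), and that from LKS-SLAM to CD8 cells 2.29 ± 0.48 (adjusted p = 0.000418). CD4 minus CD8 was -3.18 ± 0.54 (adjusted p = 0.000976), where 3.48% of all genes were called. LKS-SLAM minus B was -0.25 (interval -1.25 to 0.74; 55.6% of genes called).
The related B cell factor Spib set B cells apart from myeloid cells. The ratio of Spi1 to Spib, both in FPKM, was 0.209 to 0.357 in control B cells and 327 to 419 in control myeloid cells. A low ratio was not particular to B cells. It was 0.187 to 0.456 in control CD4 cells, where Spi1 was low, and 0.501 to 1.74 in control CD8 cells.

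In rEC cells Spi1 fell in CD8 cells. The 3 rEC CD8 libraries held 0.389, 0.161 and 0.736 FPKM, all below the lowest control, 7.24. The difference was -3.48 ± 0.48 (SE; adjusted p = 0.000547), and it kept its call without any 1 of the 6 libraries (-3.94 to -2.97). It missed the threshold when the 2 CD8 groups were fitted alone (adjusted p = 0.062). The rEC level lay near that of CD4 cells, which have little Spi1.
Markers of other cells moved with this result. All 6 B cell markers were above 0 in the CD8 libraries, with a summed level of 475, 307.5 and 199 FPKM in controls and 43.2, 6.80 and 62.4 in rEC cells, with no overlap. The 8 monocyte and macrophage markers summed to 45.0, 96.1 and 26.7 FPKM in controls, in the same order as Spi1, and to 29.01, 11.2 and 12.5 in rEC cells, where 2, 5 and 3 of the 8 were at 0. The 8 T cell markers were similar in both, at 1967 to 2066 FPKM in controls and 1726 to 2095 in rEC cells. The part of these cells in the Spi1 result was not tested.

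The 5 cell types differed from each other in the Spi1 response (F test, adjusted p = 0.0364; 0.277% of genes called). That call was lost in 17 of 26 fits that each left out 1 library (adjusted p 0.00237 to 0.141). CD4 cells went the other way. Their rEC libraries held 1.92 and 1.54 FPKM, both above the controls, but the difference of 0.65 (interval -0.57 to 1.87) did not pass.
Myeloid rEC libraries held 627 and 823 FPKM, to both sides of their controls, a difference of 0.14 (-1.08 to 1.36). B cell rEC libraries held 27.2, 107 and 104 FPKM, the first being the library with T cell markers, and the difference was -0.42 with it and 0.22 without it. LKS-SLAM rEC libraries held 80.7, 20.4 and 58.4 FPKM, the lowest being the library with erythroid markers, and the difference was -0.71 with it and -0.14 without it. The mean over 5 cell types was -0.77 (interval -1.25 to -0.28; adjusted p = 0.155).

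Known PU.1 targets fell in CD8 rEC cells beside Spi1. In this comparison 0.987% of all genes were called lower. Of 13 targets 5 fell and none rose, with a median of -0.94 against 0.00 for all genes. The 5 included Csf1r, the macrophage growth factor receptor (-3.50), the phagocyte oxidase gene Cybb (-3.23), the integrin gene Itgam (-2.70) and the B cell kinase gene Btk (-2.28). Csf1r is also on the list of monocyte and macrophage markers. Summed B cell markers were 199 to 475 FPKM in CD8 controls and 6.80 to 62.4 in CD8 rEC cells. The part of such cells in these 5 calls was not tested. Csf1r stood at 9.57, 29.1 and 7.54 FPKM in the controls, highest in the replicate with the most Spi1, and at 0.790, 0.0125 and 0.0433 in rEC cells. Of the 14 other ETS genes Spib fell by 2.76 (adjusted p = 0.041) in CD8 cells and none rose, but it did not pass with quantile scaling or without any 1 of 4 of the 6 libraries. In LKS-SLAM rEC cells 3 of the 13 targets fell, Itgam (-2.39), Ncf1 (-2.38) and Cybb (-2.24), in a comparison where 1.32% of all genes were called. Neutrophil markers summed to 1793 to 2864 FPKM in those controls and 6.73 to 417 in the rEC libraries, and their part in these 3 calls was not tested. In myeloid, B and CD4 cells no target was called, where 0.227%, 0% and 0.0213% of all genes were called.

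The FGRS culture held 168, 301 and 253 FPKM of Spi1, above every LKS-SLAM, B and T cell library and below every myeloid library. Spi1 was 1.61 ± 0.48 higher than in control LKS-SLAM cells (SE; adjusted p = 0.00861) and 2.32 ± 0.48 higher than in rEC LKS-SLAM cells (adjusted p = 0.000571; 1.75 without rEC replicate 2). The first was not called with quantile scaling (1.11, adjusted p = 0.0799) and the other was not called with its 2 groups fitted alone (adjusted p = 0.0617). Against control myeloid cells Spi1 was lower, at -1.48 ± 0.54 (adjusted p = 0.022), a call lost without myeloid control replicate 1 or 2 (adjusted p = 0.0975 and 0.076) or FGRS replicate 1 (0.0818).
In the culture 9 of the 13 PU.1 targets rose against control LKS-SLAM cells and none fell, with a median of 1.85 against -0.19. There 17.1% of all genes were called higher. The Fc receptor gene Fcgr1 rose by 4.16, Csf1r by 3.97, the scavenger receptor gene Msr1 by 3.23, Itgam by 2.79, Cybb by 2.09 and Itgb2 by 1.85. With quantile scaling 7 rose. Against rEC LKS-SLAM cells, where 17.2% of all genes were called higher, 9 rose as well, led by Itgam (5.17) and Csf1r (4.71). Against control myeloid cells 10 of the 13 were lower and 1, the lymphoid receptor gene Il7r, was higher (3.51), where 20.3% of all genes were called lower. Leaving out 1 library at a time, the call of Il7r was lost in 4 and that of Ncf1 in 5 of 5 fits.
The monocyte and macrophage markers, which share Csf1r and Fcgr1 with this list, summed to 324, 1907 and 1469 FPKM in the 3 culture libraries, lowest where Spi1 was lowest. Their part in the result was not tested. Other ETS genes were lower in this comparison. Of 14, 8 fell against control LKS-SLAM cells and none rose, including Erg (-2.63) and Ets1 (-1.80), regulators of stem cells and lymphocytes, where 31.7% of all genes were called lower. Etv6 (-0.83) and Fli1 (-0.80) were among the 8, but each call was lost in 5 of 6 leave-one-out fits and with median scaling (adjusted p = 0.063 and 0.0519). The number that fell was 7 with quantile and 6 with median scaling.

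**Figure D4:**
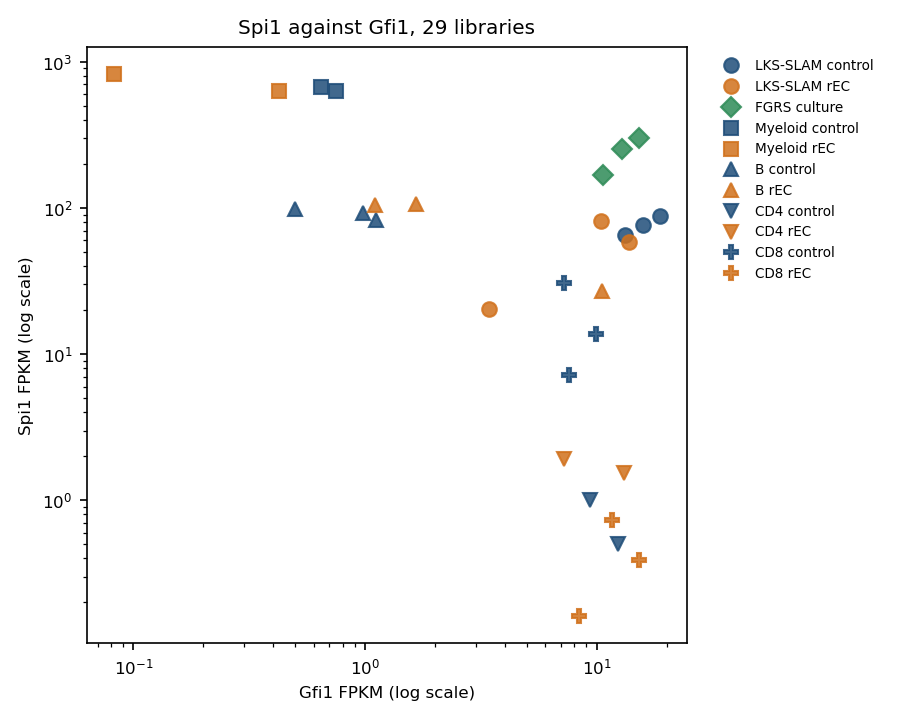
Spi1 against Gfi1, both in FPKM on log axes, in the 29 grouped libraries, with symbols by cell type and colours by origin. The FGRS culture lies at high values of both, apart from the myeloid libraries (high Spi1, Gfi1 at 0.750 or less) and the T cell libraries (Gfi1 at 7.24 or more, Spi1 at 30.8 or less).

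GFI1 and PU.1 are known to oppose each other in the choice between granulocyte and macrophage fates. The ratio of Spi1 to Gfi1 FPKM was steady in control LKS-SLAM cells, at 4.70 to 4.90, and was 4.23 to 7.73 in rEC LKS-SLAM cells. The culture stood at 15.8 to 19.9. B cells overlapped by origin, at 74.1 to 198 in controls and 2.57 to 93.8 in rEC cells. The other 3 types did not overlap by origin. Among single genes, 44.2%, 37.3% and 30.5% did not overlap by origin in myeloid, CD4 and CD8 cells. The ratio was higher in rEC myeloid cells (1473 to 9971, against 841 to 1045 in controls) and in rEC CD4 cells (0.117 to 0.265, against 0.0409 to 0.109). It was lower in rEC CD8 cells, at 0.0192 to 0.0634 against 0.956 to 4.26 in controls. Gfi1 was at 0.750 FPKM or less in the myeloid libraries, and at 0.0825 in rEC replicate 2, which gave the ratio of 9971. Spi1 was at 0.502 to 1.92 FPKM in CD4 libraries and 0.161 to 0.736 in rEC CD8 libraries. Ratios of such low values have little precision, and no test was made of this ratio. Over the 29 grouped libraries the correlation of Gfi1 with Spi1 was r = -0.54. For the other pairs of factors it was 0.53 (Fosb with Runx1), 0.32 (Fosb with Gfi1), 0.22 (Fosb with Spi1), 0.18 (Runx1 with Spi1) and 0.12 (Gfi1 with Runx1), all as descriptions over libraries that share groups.
The nearest genes to Spi1 over the 29 libraries included Cst3, encoding the protease inhibitor cystatin C (r = 0.96), the kinase gene Fes (0.96), Zeb2os (0.95) and Stx7 (0.95), and Stx7 was again among the nearest 5 over group means.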

How the data were processed

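Poly-A selected RNA was read as 51 bp paired ends from non-stranded libraries, per the labels' protocols, so overlapping and antisense transcripts cannot be told apart. The authors deposited FPKM per gene symbol. Per the submitters' processing notes, the tools were TopHat2 2.1.0, Cufflinks 2.2.1, Trimmomatic 0.36, bcl2fastq 2.17 and FastQC 0.11.5, and the build mm10; settings and any normalisation between libraries are not given in the sources used here. Values of Runx1 in 30 and of Gfi1 in 23 of 30 libraries carry more than 6 significant digits, unlike those of Fosb and Spi1, and may combine several entries. No value column was without a sample.

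Differences were fitted to log2(FPKM + 1) with limma 3.58.1 (R 4.3.3, intensity trend, two-sided) as 1 mean per group over 29 libraries, with 18 residual degrees of freedom. Of 23060 symbols, 3744 were at 0 everywhere and 14083 reached 1 FPKM in 2 libraries or more and were tested. P-values were adjusted by Benjamini-Hochberg within a comparison and a call needed 0.05. Tested were rEC against control in 5 cell types, their mean, an F test between them, the culture against 3 groups, and 10 pairs and an F test of control types. Pooling the spread assumes that groups of 2 libraries vary like larger ones. Relative depth used genes under 0.5 FPKM. Plots and sums used Python 3.11.15, pandas 2.3.3, numpy 2.4.6 and matplotlib 3.10.9.

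The text names the 4 factors, the 5 genes nearest each by correlation, up to 6 called members per list with the largest difference, and members chosen for their role. A few genes that this rule names are not reported here. Members and the 18 lists were chosen with earlier results of these data known. Alternatives were another pseudocount (0.1), no filter or 5 FPKM, quantile or median scaling, array quality weights, a fit on the compared groups alone, a replicate block, leaving out each library, and leaving out both libraries that stood apart.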

Additional observations from a re-analysis of the deposited data

Results flagged for a closer look

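The rEC minus control difference of Spi1 differed between the 5 cell types by limma's F test on all 14083 genes (adjusted p = 0.03638). The differences in CD4 and CD8 cells had opposite signs, with no overlap between origins in either. Spi1 was 0.65 higher in rEC CD4 cells, in 2 of 2 libraries, a difference that did not pass the test. In CD8 cells the difference was -3.48, lower in 3 of 3 rEC libraries. Of all genes, 37.3% did not overlap by origin in CD4 and 30.5% in CD8 cells. The call of the F test was lost in 17 of 26 fits that each left out 1 library, with quantile scaling (adjusted p = 0.06193) and with the compared groups fitted alone (0.06166). The pair of T cell types was not tested against each other.

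The library titled B220+ and clone 47G1 but labelled wild type stands in no comparison. Its Gfi1, at 1.205 FPKM, was above all 3 control B cell libraries (0.497, 1.11 and 0.980 FPKM).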

How the results depend on the processing

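FPKM carry no counts, so low values such as Gfi1 in myeloid and B cells and Spi1 in T cells have the least precision, and no interval for depth can be given. Where a result below changed, the cause was not tested.

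With a pseudocount of 0.1 the mean Gfi1 difference between origins was -0.08. With quantile scaling the Runx1 difference was -0.05 in B cells and -0.09 for culture minus myeloid cells, Spi1 in culture minus control LKS-SLAM cells was 1.11, and the adjusted p of the F test of Spi1 was 0.06193. With median scaling Runx1 was -0.03 in B cells, -0.02 in CD8 cells and -0.14 for culture minus myeloid cells, Gfi1 was 0.07 for myeloid minus B controls, and Fosb was 0.05 for myeloid minus CD8 controls. With quality weights Fosb was -1.43 in LKS-SLAM (adjusted p = 0.0415), 0.11 in B and -2.99 in CD8 cells (adjusted p = 0.00123). Runx1 was then 0.63 in LKS-SLAM cells, -0.04 in CD8 cells, 0.18 over the mean and -1.55 for culture minus rEC LKS-SLAM cells (adjusted p = 1.07e-13), with an F test of 0.02821. Spi1 was 0.21 in LKS-SLAM and 0.19 in B cells, and Gfi1 was -0.06 over the mean and 0.32 for culture minus rEC LKS-SLAM cells (adjusted p = 0.0467). Fitted on the compared groups alone, Spi1 in CD8 cells (-3.48) and the culture minus rEC LKS-SLAM differences of Fosb (-3.76) and Spi1 (2.32) missed the threshold. The F test of Spi1 gave 0.06166, and Fosb in culture minus myeloid cells (-1.20) passed. Those fits have fewer residual degrees of freedom. Without both libraries that stood apart, Runx1 was 0.24 in LKS-SLAM cells, 0.14 over the mean and -1.20 for culture minus rEC LKS-SLAM cells (adjusted p = 2.66e-05). Spi1 was then 0.22 in B cells, Gfi1 -0.03 over the mean, and Fosb in CD8 cells -2.91 with adjusted p = 0.019.

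Of the genes called, the share higher in rEC was 5.38% in LKS-SLAM cells (43.6% with quantile scaling), 12.6% in CD8 cells (27.8%) and 46% over the mean (62.3%). The share higher in the culture was 35.1% against control LKS-SLAM cells (50.7%) and 65% against myeloid cells (50.5%, and 52.1% with median scaling). In pairs of control types quantile scaling moved the share higher in LKS-SLAM cells to 51.2%, 44.1%, 45.1% and 44.8% against myeloid, B, CD4 and CD8 cells, from 73.8%, 66.1%, 63.3% and 66.2%. Median scaling moved the share higher in myeloid cells to 49.3%, 47.6% and 46.9% against B, CD4 and CD8 cells, from 32.5%, 30.9% and 32.6%.

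The number of genes called in rEC against control was 186 in LKS-SLAM cells, and 329 with no filter, 6240 with weights, 0 on the groups alone and 1557 without both libraries. It was 32 in myeloid cells, and 6 with pseudocount 0.1, 93 with no filter, 7 with a filter of 5 FPKM, 67 with quantile scaling, 368 with weights, 1 on the groups alone and 105 without both. In B cells it was 0 (398 at an unadjusted p under 0.05), and 4 with no filter, 1 with quantile scaling, 151 with weights and 1 on the groups alone. In CD4 cells it was 3, and 38, 50, 0 and 14 with no filter, with weights, on the groups alone and without both. In CD8 cells it was 159, and 277 with pseudocount 0.1, 1764 with weights, 82 on the groups alone and 453 without both. The mean of 5 gave 126, and 2762 with weights and 703 without both. The F test gave 39, and 135 with no filter, 24 with a filter of 5 FPKM, 4950 with weights and 550 without both. The culture against rEC LKS-SLAM cells gave 6335, and 11581 with weights and 820 on the groups alone.
With 1 library left out at a time the numbers ranged from 113 to 1258 in LKS-SLAM, 13 to 78 in myeloid, 0 to 5 in B, 3 to 14 in CD4 and 53 to 193 in CD8 cells, 59 to 500 for the mean and 26 to 347 for the F test.

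Leaving out 1 library at a time gave these ranges where a sign or call changed. Fosb ranged from -1.98 to -1.63 over the mean, -1.34 to 0.26 in B and -3.57 to -2.11 in CD8 cells, -0.47 to 0.67 for myeloid minus CD4, -0.98 to 0.48 for myeloid minus CD8 and -1.08 to 0.38 for CD4 minus CD8 controls. Gfi1 ranged from -0.13 to 0.13 over the mean and -0.51 to 0.27 in CD4 cells. Runx1 ranged from -0.59 to 0.24 in LKS-SLAM, -0.16 to 0.27 in B, -0.29 to 0.20 in CD4 and -0.08 to 0.07 in CD8 cells, -0.08 to 0.09 over the mean, -1.13 to -0.76 for culture minus control and -1.20 to -0.37 for culture minus rEC LKS-SLAM cells. Spi1 ranged from -0.75 to 0.22 in B and -0.06 to 0.33 in myeloid cells and -1.66 to -1.24 for culture minus myeloid cells, and its F test from 0.00237 to 0.141. In the culture against either LKS-SLAM group, the calls of Fosb and Spi1 held in all such fits.

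Same-numbered libraries did not deviate together (r = 0.075 in myeloid cells and -0.089 to 0.065 between culture and control LKS-SLAM cells), so the numbers were not used as pairs. With a replicate block the myeloid differences were -1.31, -0.45, 0.22 and 0.14 for Fosb, Gfi1, Runx1 and Spi1, with 40 genes called. Those of the culture from control LKS-SLAM cells were -5.90, -0.29, -0.96 and 1.61, with 6799 genes called against 6870, and the block changed no call of the 4 factors.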
